A study of Mus musculus with 2 samples.

Results

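The central nervous system myelin genes Mbp, Mog, Mag, Mobp, Cnp, Cldn11, Myrf and Opalin were examined in DNase-seq data from mouse frontal cortex. They were chosen by symbol, and all 8 were found among the 21938 protein-coding genes of the GENCODE M21 annotation (build mm10). DNase I cuts DNA that is not held in nucleosomes, so a stretch with many cuts, called a peak, marks accessible chromatin, and a short protected stretch within such DNA is called a footprint. The tissue came from female B6CASTF1/J mice aged 14 days, the F1 of C57BL/6J and CAST/EiJ, with no treatment labelled. The 2 libraries, replicate 1 and replicate 2, are separate biosamples of 1 group with the same donor label, and both carry a label that reads 3x, so that pooling of several animals is possible but not stated. With 1 group there was no comparison between conditions and no test, so each value is given for both libraries and beside the same value over all genes or regions. The spread between 2 such libraries may be technical.

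Myelin is the multilayered membrane that oligodendrocytes wrap around axons, and it speeds the conduction of nerve impulses. Oligodendrocytes arise from dividing precursors, and in the mouse cortex the first sheaths form in the weeks after birth, so the age sampled here lies early in cortical myelination. The transcription factors SOX10 and OLIG2 act throughout this lineage, and MYRF, the product of one of the 8 genes, drives myelin genes as the cells mature. Chromatin of mature oligodendrocytes is thus one part of a tissue that also holds neurons, astrocytes, precursors, microglia and vessel cells. In such bulk tissue, fewer cells of a type and less accessibility per cell cannot be told apart.

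For each gene, peaks and footprints with their midpoint in the gene body or within 10 kb on either side were taken. A peak whose midpoint lay no more than 500 bp from any start site (TSS) annotated for the same gene was called an own-TSS peak. Peaks as near to the TSS of another gene were set apart, and the rest are called other peaks. Peak signal is the authors' own value, normalized for read depth, on a scale that is not stated. Replicate 1 held 93641 peaks with a median signal of 0.663 and replicate 2 held 66196 with a median of 0.712. Read totals were not used here, so the depth is unknown, and a missing peak means only that none was called. At the 8 genes there were 36 peaks in replicate 1 and 26 in replicate 2, a mean of 31 ± 7.07 (SD, n = 2), of which 6 and 4 were own-TSS peaks and 27 and 20 were other peaks.

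Other peaks made up 27 of the 36 peaks at the 8 genes in replicate 1 and 20 of 26 in replicate 2, against 64.4% and 57.6% of all peaks in or within 10 kb of a protein-coding gene, and 72.7% and 66.9% of all peaks. Only Cnp and Myrf had an own-TSS peak in both libraries, 2 of 8 genes, where 58.2% of all protein-coding genes had one. Both calls ended with the stricter peak list, which gave 0 of 8 genes against 51.9% of all genes. In replicate 1 the count was 4 of 8 (Mbp, Cnp, Cldn11 and Myrf) against 63.3% of all genes, and in replicate 2 it was 2 of 8 against 58.6%. The Mbp call came from the upstream group of its start sites alone, with none at those further downstream. Every one of the 8 genes had at least 1 other peak in each library, which held for 56.2% of all genes. Mog, Mag, Mobp and Opalin, 4 of the 8, had other peaks in each library and no own-TSS peak in either, a pattern found in 12.6% of all genes. Among the gene lists described below, the pattern was found at 4 of 6 microglia genes and 5 of 26 wider myelin genes. For lineage factors it was 2 of 10, for precursor genes 2 of 8 and for astrocyte genes 2 of 10. Endothelial genes had it in 1 of 5, neuron genes in 0 of 12 and Schwann cell genes in 0 of 4. With so few genes and a choice made with results of these data known, the counts describe these genes and carry no test.

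**Figure D1:**
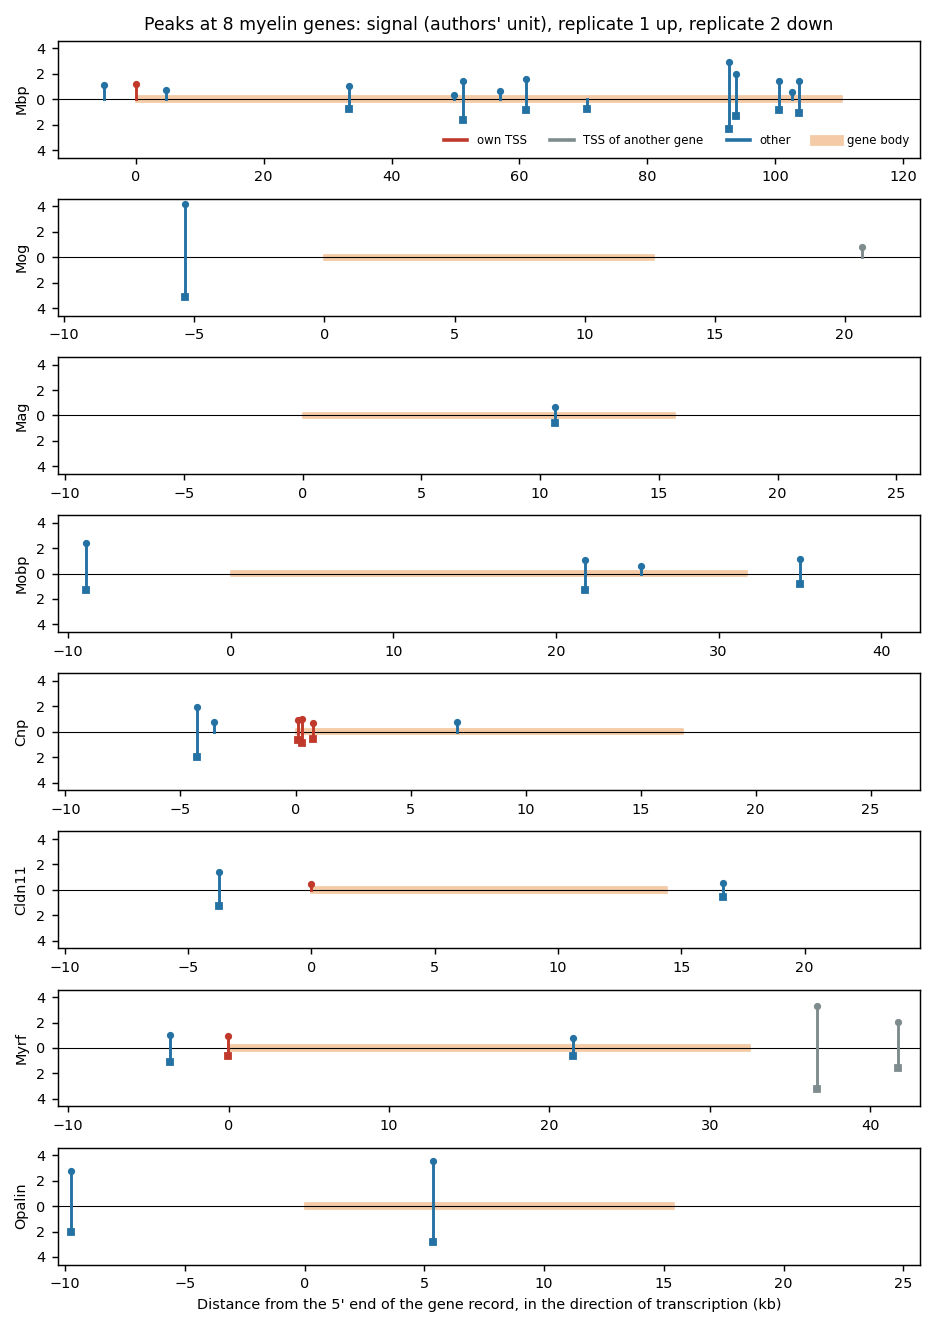
Signal of every peak in the gene body and 10 kb on either side (authors' unit), against distance in kb from the 5' end of the gene record. Circles point up for replicate 1 and squares point down for replicate 2, coloured by class; the tallest pairs, at Mog (4.19 and 3.16) and Opalin (3.52 and 2.80), are other peaks.

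The sequences of 10 of these other sites are printed here, namely the strongest of each gene except Mbp and a further site of Opalin, Mobp and Myrf, because footprints of both libraries fall inside them. Each is the reference sequence (RefSeq, GRCm38.p6) of the region covered by the peaks of either library, from the plus strand of mm10, 5′ to 3′. Capitals mark bases that lay in a footprint of both libraries. None of these regions overlaps an annotated untranslated region. The site of Mbp lies on a chromosome whose sequence is not printed, and it is described by its position alone.
Mog, upstream, chr17:37028641-37028860: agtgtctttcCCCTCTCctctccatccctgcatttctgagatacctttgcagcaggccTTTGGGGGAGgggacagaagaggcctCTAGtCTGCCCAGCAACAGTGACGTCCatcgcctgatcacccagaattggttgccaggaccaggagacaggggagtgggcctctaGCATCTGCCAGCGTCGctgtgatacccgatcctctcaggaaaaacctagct
Opalin, intron, chr19:41071661-41071820: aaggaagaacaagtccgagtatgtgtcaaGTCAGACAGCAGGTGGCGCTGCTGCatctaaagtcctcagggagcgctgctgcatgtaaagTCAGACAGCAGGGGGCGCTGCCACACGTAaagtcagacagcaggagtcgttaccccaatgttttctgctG
Opalin, upstream, chr19:41086761-41086980: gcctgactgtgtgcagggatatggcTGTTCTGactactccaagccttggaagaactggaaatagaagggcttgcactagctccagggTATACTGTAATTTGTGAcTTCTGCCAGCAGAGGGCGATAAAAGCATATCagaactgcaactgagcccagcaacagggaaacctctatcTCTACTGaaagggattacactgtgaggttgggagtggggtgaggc
Mobp, upstream, chr9:120140741-120140940: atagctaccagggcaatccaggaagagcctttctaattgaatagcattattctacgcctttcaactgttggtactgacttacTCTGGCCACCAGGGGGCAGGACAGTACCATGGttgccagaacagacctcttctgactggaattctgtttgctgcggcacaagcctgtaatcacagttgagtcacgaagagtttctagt
Mobp, intron, chr9:120171381-120171561: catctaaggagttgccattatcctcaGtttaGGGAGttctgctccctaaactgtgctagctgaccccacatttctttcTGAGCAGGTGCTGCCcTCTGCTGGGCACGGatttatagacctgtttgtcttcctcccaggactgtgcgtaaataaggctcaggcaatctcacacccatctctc
Mag, intron, chr7:30904121-30904340: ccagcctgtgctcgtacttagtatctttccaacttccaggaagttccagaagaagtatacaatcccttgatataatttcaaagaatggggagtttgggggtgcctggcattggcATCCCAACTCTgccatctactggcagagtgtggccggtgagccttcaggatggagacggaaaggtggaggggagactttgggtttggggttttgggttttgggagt
Cnp, upstream, chr11:100570521-100570740: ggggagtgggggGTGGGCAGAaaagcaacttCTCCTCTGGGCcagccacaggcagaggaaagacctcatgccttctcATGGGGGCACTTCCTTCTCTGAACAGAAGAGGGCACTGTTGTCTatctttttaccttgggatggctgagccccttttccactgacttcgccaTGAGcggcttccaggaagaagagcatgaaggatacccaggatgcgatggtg
Cldn11, upstream, chr3:31146081-31146240: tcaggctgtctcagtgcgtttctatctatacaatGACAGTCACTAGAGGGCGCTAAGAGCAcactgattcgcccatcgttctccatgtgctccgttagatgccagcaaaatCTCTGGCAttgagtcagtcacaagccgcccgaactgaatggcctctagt
Myrf, upstream, chr19:10244281-10244480: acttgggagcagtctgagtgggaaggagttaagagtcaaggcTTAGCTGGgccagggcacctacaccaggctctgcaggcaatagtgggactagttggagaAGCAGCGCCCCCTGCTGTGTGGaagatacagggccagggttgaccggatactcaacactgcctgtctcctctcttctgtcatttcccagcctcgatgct
Myrf, intron, chr19:10219206-10219356: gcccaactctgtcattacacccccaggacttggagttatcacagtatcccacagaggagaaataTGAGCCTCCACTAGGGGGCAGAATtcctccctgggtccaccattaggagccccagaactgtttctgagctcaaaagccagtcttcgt

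Among the proteins of compact myelin and the myelin surface, Mbp encodes myelin basic protein, which holds together the cytoplasmic faces of the membrane. Its record spans chromosome 18, 82475146 to 82585637, on the plus strand and has 12 annotated start sites in 3 groups. The upstream group, at 82475146 to 82475370, starts the longer golli transcripts, and the group at 82554470 to 82554580 lies far downstream of it. At the upstream group replicate 1 had a peak of 1.21 (82474981 to 82475260) and replicate 2 had none, its nearest peak lying 19465 bp away. At the downstream group neither library had a peak within 500 bp, and the nearest lay at 13321 bp in replicate 1 and 8813 bp in replicate 2. No base there was listed with a false discovery rate (FDR) under 0.05 in either library. The single start site at 82563262 also had no peak within 500 bp in either library.

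Within the long introns of Mbp the picture was different. Its other peaks numbered 12 and 8 in replicates 1 and 2, the most of the 8 genes, as its record of 110492 bp is also the longest. Per 100 kb this was 9.20 and 6.13, above the 3.61 and 2.35 over all protein-coding genes. Of its other regions, 7 were called in both libraries, and all 7 were intronic and held footprints in both. The strongest, at 82567781 to 82568000, had a signal of 2.94 in replicate 1 and 2.34 in replicate 2, and a neighbour at 82568941 to 82569160 had 1.95 and 1.31. Both lie downstream of every annotated Mbp start site, with the first of them 4639 bp from the nearest one. The site at 82526221 was higher in replicate 2 (1.66 against 1.43), whereas that at 82536101 was lower there (0.815 against 1.55). The remaining shared sites, at 82508361, 82575604 and 82578761, had signals from 1.04 to 1.41 in replicate 1 and from 0.798 to 1.06 in replicate 2.

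Mog encodes a glycoprotein on the outermost surface of the sheath. Its record lies on chromosome 17, 37010743 to 37023398, minus strand. No own-TSS peak and no FDR-listed base near its 2 start sites was found in either library. Its single other region lay 5363 bp upstream, between genes, and was the strongest of the other sites at the 8 genes, with a signal of 4.19 in replicate 1 and 3.16 in replicate 2. These values stood at the 95.6th and 95.8th percentile of all peaks of their library. The lowest FDR in the region was 8.71e-33 in replicate 1 and 9.08e-23 in replicate 2. Footprints of both libraries covered 59 of its 220 bases, the longest common stretch being the 22 bases from position 90 to 111 of the printed sequence. Accessible DNA went on past its edge, where all of the next 200 bases were FDR-listed in both libraries and held 5 footprints in replicate 1 and 3 in replicate 2. The only other peak near Mog, 0.830 in replicate 1 alone, lay at the TSS of Zfp57, a gene for an imprinting factor.

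Mobp encodes a small basic protein of compact myelin, on chromosome 9, 120149707 to 120181484, plus strand. None of its 5 start sites had an own-TSS peak or an FDR-listed base nearby. The strongest other site lay 8866 bp upstream and had 2.38 in replicate 1 and 1.33 in replicate 2, so the libraries differed more here than at Mog. Inside the gene, a site in an intron had 1.05 and 1.32 and was the higher of the pair in replicate 2. A site beyond the 3′ end, in an intron of Gm38642, had 1.13 and 0.789.

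Opalin encodes a transmembrane glycoprotein found in oligodendrocytes, on chromosome 19, 41061710 to 41077113, minus strand. It had no own-TSS peak and no FDR-listed base near its 2 start sites, and 2 other sites in each library. The intronic site, 5372 bp inside the gene, had 3.52 in replicate 1 and 2.80 in replicate 2, at the 93.7th and 93.8th percentile of the libraries. The upstream site, 9768 bp from the start and within an intron of Tll2, had 2.80 and 2.02. Replicate 1 was the higher at both, and the order of the sites was the same in both libraries.

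Mag encodes a cell adhesion molecule of the inner layer of the sheath that faces the axon, on chromosome 7, 30899176 to 30914873, minus strand. It had the least accessible DNA of the 8 genes. Neither library had a peak within 10 kb of its 7 start sites, and no base near them was FDR-listed. Its single peak lay 10632 bp inside the gene, in an intron (30904121 to 30904340), with 0.697 in replicate 1 and 0.592 in replicate 2. Those values stood at the 52.7th and 38.4th percentile, near the middle of each library's peaks, and the site held 1 footprint in each.

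The next genes, Cnp and Cldn11, encode proteins of the channels and of the tight junctions of the sheath. Cnp encodes a phosphodiesterase of the cytoplasm-filled channels, on chromosome 11, 100574904 to 100591729, plus strand. Its start sites carried 3 own-TSS regions called in both libraries. The strongest of them, at 100575061 to 100575456, had 1.02 in replicate 1 and 0.875 in replicate 2, and the others had 0.958 and 0.652, and 0.650 and 0.609. For comparison, the median of the strongest own-TSS peak over all genes with one was 2.69 in replicate 1 and 1.86 in replicate 2. A stronger site lay 4273 bp upstream, in an intron of Ttc25, with 1.94 and 2.02. This was the Cnp site with the most footprints away from a TSS, 5 in replicate 1 and 4 in replicate 2.

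Cldn11 encodes the claudin of the radial tight junctions of myelin, on chromosome 3, 31149920 to 31164324, plus strand. Its single start site had a weak own-TSS peak in replicate 1 (0.482, at 31149825 to 31149994) and none in replicate 2. The site 3759 bp upstream had 1.41 and 1.26, and one downstream of the gene, at 31166375 to 31166847, had 0.576 and 0.592. Both of these were called in each library. In the downstream one only replicate 1 had footprints, 6 of them, which made it the single exception among the 19 shared other sites of the 8 genes.

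Myrf encodes a membrane-bound transcription factor whose released part enters the nucleus and drives myelin genes. It lies on chromosome 19, 10208272 to 10240748, minus strand. At its upstream start sites a peak had 0.978 in replicate 1 and 0.669 in replicate 2 (10240661 to 10240900), and at its internal start site there was none. The site 3633 bp upstream had 0.985 and 1.08, so in replicate 1 it was level with the start and in replicate 2 above it. An intronic site had 0.804 and 0.609. The strongest peaks in the window belonged to other genes, with 3.30 and 3.26 at the shared start of Fen1 and Tmem258 and 2.06 and 1.54 at that of Gm10143.

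When the strongest other peak was set against the strongest own-TSS peak of the same gene, the other peak was the higher in each library at 8 of 8 genes. Over the 16406 genes with either kind in each library, this held for 34.4%. In the gene lists described below, counted in the same way, it held at 5 of 5 microglia and 3 of 3 endothelial genes. It also held at 15 of 24 wider myelin genes and 7 of 12 neuron genes. Lower counts were found at lineage factors (4 of 10), astrocyte genes (4 of 10), precursor genes (2 of 8) and Schwann cell genes (1 of 4). The trait was thus not particular to the 8 genes. At Mog, Mag, Mobp and Opalin the own-TSS value was none in both libraries, and at Mbp and Cldn11 in replicate 2. In order of signal in replicate 1, the strongest other sites ran Mog, Opalin, Mbp, Mobp, Cnp, Cldn11, Myrf and Mag. Replicate 2 gave the same order except that Cnp (2.02) stood above Mobp (1.33). Within each library Mog stood above Opalin, Opalin above Mbp and Mbp above Mobp, although the ranges of their 2 values overlapped from one gene to the next. Mobp and Cnp changed places between libraries and so did not differ beyond that spread. The ranges of Cnp and Cldn11, of Cldn11 and Myrf, and of Myrf and Mag did not overlap.

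**Figure D2:**
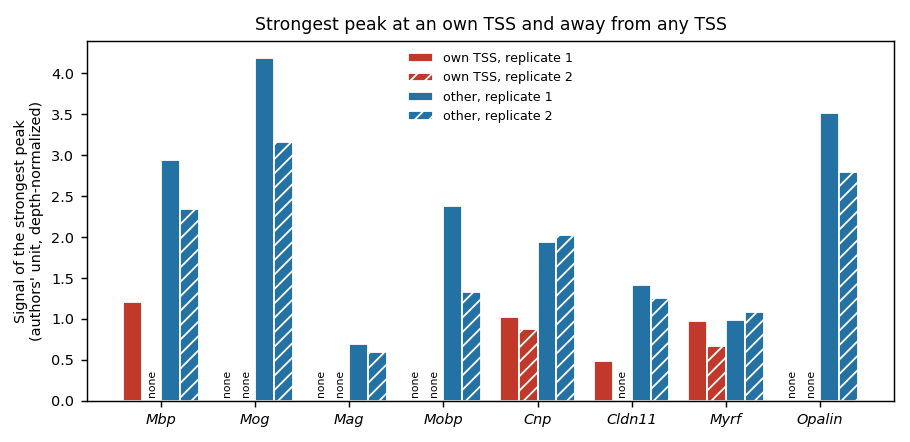
Signal of the strongest own-TSS peak (red) and strongest other peak (blue) per gene, in the authors' unit; plain bars are replicate 1 and hatched bars replicate 2, and none marks that no peak was called. Blue bars exceed the red bars of the same library at each gene, narrowly at Myrf in replicate 1 (0.985 against 0.978).

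The FDR files gave a second readout at the start sites that did not need a peak call. Of the genes without an own-TSS peak in replicate 1, 4 were members, and 0 of them had a listed base within 500 bp of a start site, where 3.63% of 8055 such genes did. In replicate 2 it was 0 of 6 members against 3.97% of 9072 genes. Listed bases were thus rare at start sites without an own-TSS peak. With shares this low, 0 of 4 and 0 of 6 members cannot show whether the members differ from other genes.

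The start sites of the 8 genes also varied in their sequence. In vertebrate genomes many promoters lie in stretches rich in the dinucleotide CG, and genes of a single cell type often lack such a stretch. The ratio of observed to expected CG in the 500 bp on either side of the 5′ end was 0.147 at Mog, 0.162 at Mag and 0.250 at Opalin, within the lowest of 3 equal groups of all genes (up to 0.303). It was 0.320 at Mobp, 0.590 at Cnp, 0.591 at Cldn11 and 0.599 at Mbp, in the middle group, and 0.729 at Myrf, in the highest (above 0.708). For Mbp this 5′ end is that of the golli transcripts, and the ratio at its downstream start sites was not computed. The median over all genes was 0.552. Over all genes, an own-TSS peak in both libraries was found in 13.8% of the lowest group, 67.8% of the middle group and 93.0% of the highest group. The members had one in 0 of 3, in 1 of 4 (Cnp) and in 1 of 1 (Myrf). The 4 genes without an own-TSS peak in either library were the 4 with the lowest ratios.

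**Figure D3:**
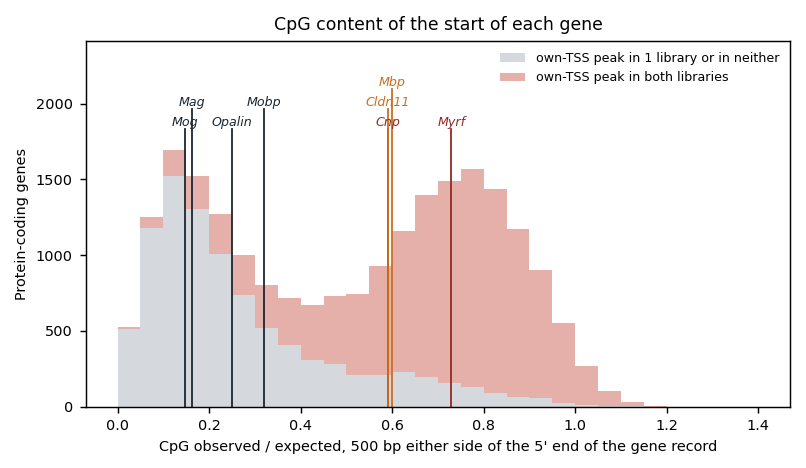
Number of protein-coding genes by observed to expected CG ratio around the 5' end, stacked by whether an own-TSS peak was called in both libraries (red) or in fewer (grey). Vertical lines mark the 8 genes, dark grey where neither library had an own-TSS peak (0.147 to 0.320), orange where replicate 1 alone did and dark red where both did (Cnp, Myrf).

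The promoter sequences show the same spread by letter. The 250 bases upstream of the start in the RefSeq promoter table (GRCm38) are printed for Mog and Opalin, which had no own-TSS peak, and for Cldn11, which had one in replicate 1. They are read in the direction of transcription, with each CG in capitals. The table matched 6 of the 8 genes.
Mog promoter, chr17:37023399-37023648, minus strand: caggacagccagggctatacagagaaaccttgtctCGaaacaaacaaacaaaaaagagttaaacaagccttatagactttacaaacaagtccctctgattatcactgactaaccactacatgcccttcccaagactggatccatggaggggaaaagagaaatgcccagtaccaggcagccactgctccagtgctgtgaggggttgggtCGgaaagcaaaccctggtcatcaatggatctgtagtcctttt
Opalin promoter, chr19:41077114-41077363, minus strand: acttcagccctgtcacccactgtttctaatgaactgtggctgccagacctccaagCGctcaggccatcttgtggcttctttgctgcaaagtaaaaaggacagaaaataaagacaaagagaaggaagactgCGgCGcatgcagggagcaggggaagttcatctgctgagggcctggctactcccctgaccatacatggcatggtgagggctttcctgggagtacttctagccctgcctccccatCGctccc
Cldn11 promoter, chr3:31149670-31149919, plus strand: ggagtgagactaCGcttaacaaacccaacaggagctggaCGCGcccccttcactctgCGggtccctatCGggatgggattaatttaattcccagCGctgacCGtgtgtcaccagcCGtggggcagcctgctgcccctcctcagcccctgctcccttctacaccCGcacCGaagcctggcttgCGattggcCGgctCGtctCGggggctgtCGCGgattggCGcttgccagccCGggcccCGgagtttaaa
Mog had 2 CG dinucleotides in this window, Opalin 4 and Cldn11 19. Of the others matched, Mag had 3, Mobp 4 and Cnp 13, and the median over 32851 promoters of the table was 6. Cldn11, with the most CG of the 6, still had only the weak peak in replicate 1.

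Merging the peaks of both libraries gave 37 regions at the 8 genes, of which 25 were called in both, 11 in replicate 1 alone and 1 in replicate 2 alone. Own-TSS regions were called in both libraries in 4 of 6 cases and other regions in 19 of 28. Of the 36 peaks in replicate 1, 69.4% overlapped a peak of replicate 2 (exact 95% binomial interval 51.9 to 83.7%). Of the 26 in replicate 2, 96.2% overlapped one of replicate 1 (80.4 to 99.9%). The intervals cover counting error only. Over all peaks the shares were 59.1% and 84.4%. Each share divides 1 overlap by lists of unequal length. The region called in replicate 2 alone was an intronic Mbp site at 82545594 with a signal of 0.772. Of the 11 regions called in replicate 1 alone, 2 held FDR-listed bases in replicate 2 and 5 were in the stricter peak list of replicate 1.

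In the 25 regions called in both libraries, the signal of replicate 1 was the higher by a median log2 ratio of 0.39 (SD 0.32 over regions, range -0.33 to 0.93). Over all 52787 regions called in both it was 0.32 (SD 0.39). In the 19 shared other regions alone the median was also 0.39 (SD 0.34), against 0.23 (SD 0.37) over all 35026 such regions, and replicate 1 was higher in 14 of the 19. Their median signal was 1.41 and 1.26, where all 35026 other regions called in both had medians of 0.851 and 0.712.

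**Figure D4:**
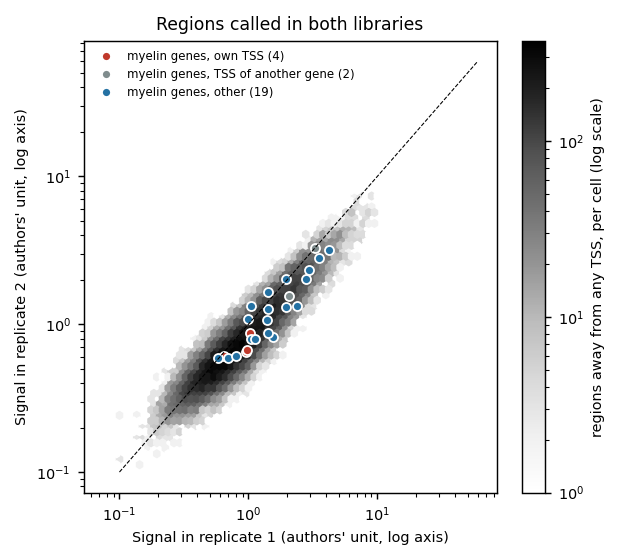
Signal in replicate 1 against replicate 2 (authors' unit, both axes log) for regions called in both libraries. Grey cells count all 35026 regions away from any TSS and coloured points are the 25 regions at the 8 genes; the points follow the grey cloud, and the dashed line marks equal signal.

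The 19 shared other regions were also described by position, annotation, GC content and footprints. By position, 6 lay upstream of the gene, 11 within it and 2 downstream. By annotation, 14 were intronic and 5 intergenic, against 66.0% and 22.7% of the 22556 shared other regions in or within 10 kb of a protein-coding gene. Their median GC content was 52.5% (47.5 to 58.4%), near the 51.3% of all 35026 other regions called in both libraries. Footprints of both libraries were present in 18 of the 19, against 80.4% of those 22556 regions. In the stricter peak list of both libraries were 13 of the 19, against 51.8%. The 19 regions also had a higher signal (median 1.41 in replicate 1, against 0.851 over all other regions called in both). These 2 shares were not computed at matched signal.

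Footprints at the 8 genes numbered 117 in replicate 1 and 71 in replicate 2, a mean of 94 ± 32.5 (SD, n = 2), out of 234094 and 154015 in all. Within 500 bp of any annotated TSS lay 36 and 18 of them, and 81 and 53 lay elsewhere. Mbp had the most, with 35 and 18, and Mag the fewest, with 1 in each library. At Myrf 17 and 14 of its 22 and 18 footprints were near a TSS, though only 3 and 2 near its own. Cnp had 11 and 4 near its start sites, Mbp 4 and 0, and Cldn11 2 and 0. At Mag, Mobp and Opalin none was near a TSS in either library, and at Mog 2 and 0 were, at the start of Zfp57. Inside peaks lay 105 and 67. Pairs of footprints that overlapped between the libraries in shared other regions numbered 34, with a median width of 17 bp (7 to 47), against 15 bp over all 41718 such footprints.

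Sequence motifs of factors known in oligodendrocytes were looked for on both strands of the central 200 bp of the 19 shared other regions. The SOX letters (ACAAAG or ACAATG) occurred in 2 of 19, both at Cldn11, against 21.8% of all 35026 such regions. The MYRF letters (CTGGCAC or CTGGTAC) occurred in 1, at Mbp, against 8.37%. E-box letters (CAGCTG or CAGATG), of the kind OLIG2 and other factors of its class can bind, occurred in 6 against 36.2%. The short motif of nuclear factor I (TTGGC) occurred in 5 against 41.1%, and its full palindrome in 0 against 0.120%. None of these stood above the share of all regions. GGGCGG was found in 1 (10.7% of all), TGANTCA of AP-1 in 2 (7.80%), and TGACGTCA and GGAATG in 0 (0.474% and 11.2%). A match is a description of letters, and its absence says only that these letters are not in the window.

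The motif of CTCF, a factor that shapes chromatin loops and binds widely in every cell type, was more frequent. Its consensus of 13 letters was present in 7 of the 19 regions, at Mag, Mbp, Mobp, Myrf and Opalin, against 11.4% of all regions. Its core of 7 letters (AGAGGGC, with the variant AGATGGC, with a further variant AGGGGGC or with a last variant AGGTGGC), which overlaps the consensus and was added after the sequences had been seen, was present in 14 of 19 against 39.5%. Counted per gene in its strongest other region, the consensus was present at 2 of 8 genes (Mag and Mobp) against 17.9% of 12010 genes, and the core at 6 of 8 against 51.4%. The motif was also commoner in strong regions generally. At a signal of at least 1.41 in replicate 1 the consensus was in 3 of 11 member regions and 23.8% of 8572 regions, and the core in 7 of 11 and 58.9%. Below that signal the consensus was in 4 of 8 member regions and 7.34% of 26454 regions, and the core in 7 of 8 and 33.2%. The members were thus near the share of all regions at the stronger sites and above it at the weaker ones, in counts too small to say more. Several of the regions share a gene, so they are not independent.

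These letters lie within the capitals in some of the printed sequences and outside them in others. In the upstream Mobp site the consensus, at positions 88 to 100 counted from the 5′ end, lies wholly within a stretch of 32 bases that footprints of both libraries cover. In the upstream Opalin site the consensus at 111 to 123 lies in a common footprint of 31 bases, and in the intronic Myrf site that at 72 to 84 lies in one of 24. The intronic Opalin site holds the core at 40 to 46 and again at 100 to 106, each within a common footprint of its own, of 25 and 29 bases. In the upstream Cnp and Cldn11 sites the core (AGAGGGC, at 105 to 111 and at 45 to 51) lies within common footprints of 44 and 27 bases. In the upstream Myrf site the core, at 108 to 114, lies in a common footprint of 22 bases. In the intronic Mobp site 12 of the 13 bases of the consensus (90 to 102) were in common footprints, whereas in the intronic Mag site it was 1 of 13 (125 to 137). Of the sites not printed, those of Mbp apart, the downstream one of Mobp holds the core once inside a common footprint and once, at 105 to 111, with 0 of 7 bases in one. The downstream site of Cldn11 holds it with 0 of 7. The upstream Mog site, the strongest of all, holds neither form. There the letters of an E-box (CAGATG on the minus strand, at 171 to 176) lie in a common footprint of 16 bases. Over the 34 footprint pairs, extended by 5 bp on each side, the consensus was in 6 (8.66% of all 41718) and the core in 14 (22.9%).

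The wider list of 26 further myelin and oligodendrocyte genes gave another count of own-TSS peaks than the 8 members. Of these 26, 20 had one in replicate 1, above the 63.3% of all genes. In replicate 2 it was 15 and in both libraries also 15, close to the 58.6% and 58.2% of all genes. The highest were Sirt2, which encodes a deacetylase abundant in myelin (6.86 and 4.08), and Zfp24, which encodes a transcription factor needed for myelination (4.16 and 2.68). The start of Sirt2 lies within 1 kb of that of another gene. Genes of the list without an own-TSS peak in either library included Aspa, Ermn, Gjc3 and Gjb1. Gjb1, of a gap junction protein, had no peak of either kind. Nfasc, of a node of Ranvier adhesion protein, had the most other peaks (9 and 8), followed by Bcas1 (7 and 6), a marker of newly forming oligodendrocytes. Their records span 177108 and 80855 bp, against a median of 17425 bp over all genes. The counts of other peaks in this and the further lists were not corrected for gene length.

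Among 10 oligodendrocyte lineage factors, own-TSS peaks were called at 8 in replicate 1 and 5 in both libraries. The shares of all genes were 63.3% and 58.2%. Yy1, which is expressed widely, and Sox8 were the highest, with 5.89 and 2.86, and 4.12 and 2.50. The other-peak counts were highest at Tcf7l2, with 16 and 11, and at Nkx2-2, with 9 and 2. The record of Tcf7l2 spans 191835 bp and that of Nkx2-2 16698 bp. Sox10, a factor that acts on many myelin genes, had no own-TSS peak and 3 and 1 other peaks. Among 8 genes of oligodendrocyte precursors, 5 had own-TSS peaks in both libraries, against 58.2% of all genes. The highest were Vcan (2.23 and 1.76) and Pdgfra (2.10 and 1.28). Lhfpl3 (9 and 8) and Cspg4 (7 and 4) had the most other peaks of that list, in records of 529539 and 34838 bp.

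Markers of the cell types that the labelled tissue could hold were counted in the same way. Own-TSS peaks in both libraries were found at 7 of 12 cortical neuron genes, 8 of 10 astrocyte genes, 1 of 5 endothelial genes and 0 of 6 microglia genes. The share of all protein-coding genes was 58.2%, but it was 13.8% in the lowest group of CG ratio. That group held 5 of the 6 microglia, 2 of the 5 endothelial, 4 of the 10 astrocyte and 5 of the 12 neuron genes. Other peaks in each library were found at all 12 neuron genes, 9 of the astrocyte genes, 3 of the endothelial and 5 of the microglia genes. Over all genes this held for 56.2%. The neuron share of own-TSS peaks, 58.3%, was level with all genes, so these counts cannot show which cell types were present. The neuronal genes with the strongest starts were Snap25 (2.31 and 1.72) and Syt1 (3.56 and 1.63). Rbfox3, with a record of 421836 bp, had 40 and 17 other peaks. All 4 genes of Schwann cells, the myelin-forming cells of peripheral nerve, had own-TSS peaks in both libraries. They include Prx (3.70 and 2.42). Peaks at start sites thus occurred at genes of cells that the labelled tissue should lack, and the share of oligodendrocytes in the tissue was not tested.

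**Figure D5:**
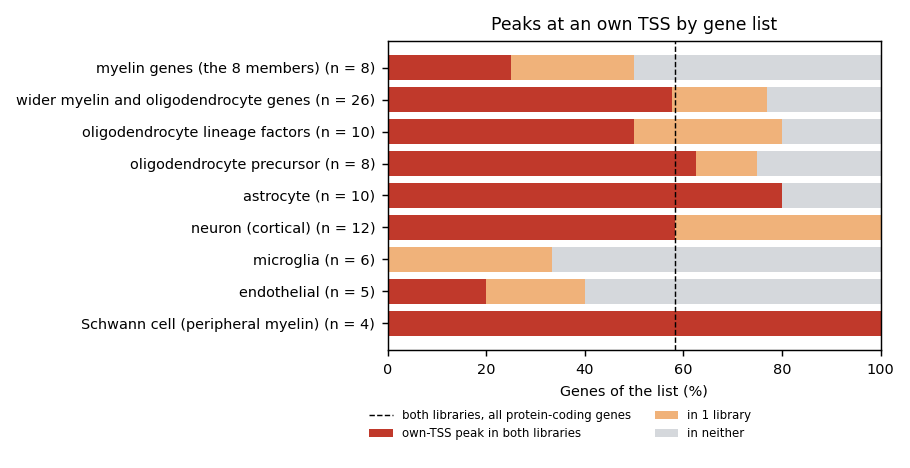
Share of genes in each list with an own-TSS peak in both libraries (red), in 1 library (orange) or in neither (grey), with the number of genes per list. The dashed line marks the 58.2% of all protein-coding genes with one in both; the 8 myelin genes have 2 in both, 2 in 1 library and 4 in neither.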

How the data were processed

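DNase-seq was measured in 2 libraries of 1 group. Per the deposited notes, peaks, footprints and FDR cut rates were made by the authors from each library's own mm10 alignments, so replicates were not pooled. Which aligner, peak caller and thresholds were used is not given in the sources used here. For peak signal the authors normalized for read depth, on an unstated scale. FDR values, deposited per stretch and on a p-value scale, are all under 0.05. The deposited footprint files hold 1 constant (0.01) as value, so positions alone were used. Each library has 2 deposited peak lists, of which the longer was used and the shorter (53068 and 36975 peaks) served as the stricter alternative.

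Peaks and footprints were assigned to a gene by their midpoint. Start sites were those of all annotated transcripts (GENCODE M21). Peaks shared at least 1 bp, and merged regions took the maximum signal of each library. Analyses used Python 3.11.15, numpy 2.4.6, pandas 2.3.3, scipy 1.17.1 and pysam 0.24.0. The functions were tested on simulated data, where 2000 of 2000 overlaps equalled those of bedtools and 400 of 400 placed start-site peaks were recovered. All 8 members were named, with per member the strongest own-TSS and other regions and any other region with footprints in both libraries. In the other lists the rule named the 2 genes with the highest own-TSS rank, the 2 with the most other peaks and, in the wider myelin list, every gene without an own-TSS peak. Some genes this rule names are not reported here. Genes beyond it (Sox10 and Prx, and the neighbours Zfp57, Fen1, Tmem258 and Gm10143) were picked with their values in view. The members and lists were chosen with earlier results of these data known. Alternatives were the stricter list, each library alone, equal numbers of peaks, other windows, start-site sets, flanks, overlaps and strength measures. The CTCF core and whole-region search were added after seeing the data.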

Additional observations from a re-analysis of the deposited data

How the results depend on the processing

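The count of genes with an own-TSS peak in both libraries, 2, was 0 with the stricter peak list (51.9% of all genes), where replicate 1 had such a peak at Mbp, Cnp and Myrf and replicate 2 at none. It ranged from 2 to 4 with 1 library left out (4 in replicate 1 alone), and stayed at 2 with equal numbers of peaks and with other windows and start-site sets. The mean number of other peaks, 23.5, was 14.5 in gene bodies alone and 60 with 50 kb flanks, and ranged from 20 to 27 with 1 library left out. The stricter list gave 17. Footprints, 94 on average, numbered 41 in gene bodies alone, and ranged from 71 to 117 with 1 library left out. The mean share of peaks found in the other library was 82.8%, with 69.4 to 96.2% in single libraries. The count of regions with the CTCF consensus, 7, was the same over whole regions and 14 with the core. Flank and motif length set how much sequence is counted. No paired analysis was possible because there is 1 group. Depth is unknown, so places without a peak in replicate 2 cannot be told apart from weak sites.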
